A study of Mus musculus with 366 samples.

Results

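Aortas of female Ath-HMDP mice were ranked by the level of Cd79a, the gene of a signalling chain that every mature B cell carries in its antigen receptor, and the 40 highest arrays (B cell rich) were set against the 40 lowest (B cell poor). Of all the arrays, 326 lay outside the rich group, and these include both the poor arrays and the arrays between. The groups were selected on Cd79a as measured on these same arrays, so they are not labelled groups. The differences below are a description with no test, and their direction for genes of the same cells follows in part from the selection. Each mouse gave 1 array of total RNA. The aorta had been taken from its arch down to the middle of the abdomen and its outer fat removed. All mice of both groups were F1 offspring of an inbred strain and C57BL/6J mice carrying the ApoE-Leiden and CETP transgenes, 24 weeks old, and had eaten chow for 8 weeks and then a Western diet for 16 weeks. Both human transgenes came from the C57BL/6J parent, and where they are inserted, and in how many copies, is not known. No aorta without the transgenes or the diet was among the arrays, and the strain of the other parent was the only labelled difference between mice.

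B cells recognise antigen through a membrane immunoglobulin that signals through Cd79a and Cd79b. In arteries with atherosclerosis they are found mainly in the adventitia, where they may gather with T cells around cells that make Cxcl13, a chemokine that attracts B cells. B cells are also the main cells of lymph node follicles, and plasma cells, which secrete antibody, are their descendants. In whole aorta RNA a lower B cell transcript level can come from fewer B cells or from less of the transcript per cell, and these cannot be told apart here.

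Cd79a was read from the single probe set that carries its name. Its log2 intensity in the B cell rich arrays was 4.83 at the lowest, 4.91 at the median and 6.98 at the highest, against 3.69, 4.04 and 4.13 in the B cell poor arrays. The arrays between had a median of 4.45. The mean was 5.05 ± 0.39 in rich and 4.02 ± 0.11 in poor arrays (SD, n = 40 each), a difference of 1.03. Neither edge of the ranking was a gap. The last rich array (C57BL/6J replicate 1) was at 4.8253 and the next array down (BXH19/TyJ replicate 3) at 4.8127. The first poor array (CXB6/ByJ replicate 4) was at 4.1266 and the next array up (LG/J replicate 2) at 4.1329. Only the upper end of the ranking spread out, with AKR/J replicate 1 at 6.98, AXB13/PgnJ replicate 1 at 6.12, BXD43/RwwJ replicate 3 at 5.50 and BXD11/TyJ replicate 2 at 5.31.

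**Figure D1:**
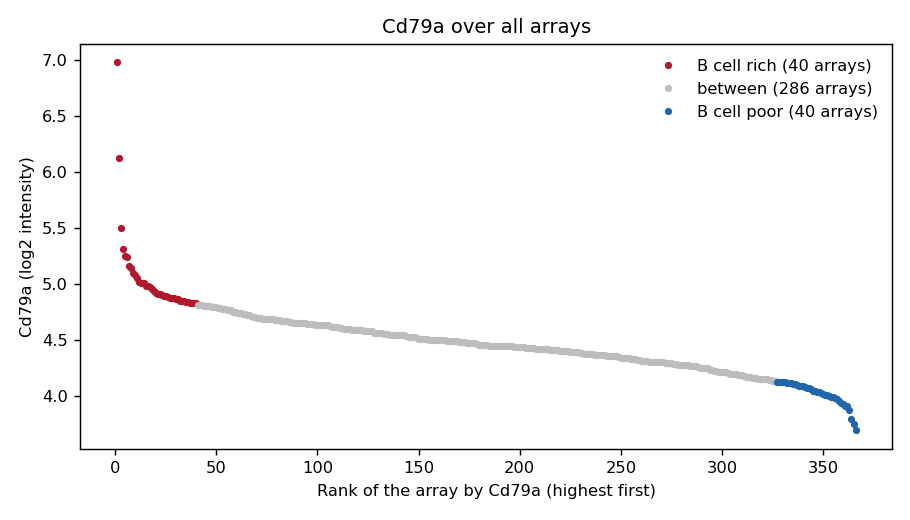
Log2 intensity of Cd79a (y axis) in every array, ordered from the highest to the lowest (x axis), with the 40 B cell rich arrays in red, the arrays between in grey and the 40 B cell poor arrays in blue. The curve is continuous at 4.83 and 4.13, where the groups end, and 4 arrays at the top lie between 5.31 and 6.98.

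Across the 17096 other genes, 58 (0.339%) had a mean at least 2-fold higher in B cell rich than in B cell poor arrays, which is a difference of at least 1 on the log2 scale, and 3 (0.0175%) had a mean at least 2-fold lower. The median difference over all genes was 0.02. When the intensities were quantile-normalized once more and the arrays ranked again, the split was 48 higher and 87 lower, with 30 of the 40 rich and 28 of the 40 poor arrays unchanged. With the original arrays kept in their groups, renormalized values gave 55 higher and 5 lower. The largest differences were those of Jchain, Ms4a1, the immunoglobulin segment Iglv1, Glycam1, Cxcl13, the immunoglobulin segment Igkj1, Ms4a4b, Ltb, Cd79b and Pou2af1. Of the 58 genes, 21 belonged to the 31 lists of cell type and pathway genes used here, which held 308 of the 17097 measured genes.

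The 5 lists of B cell genes held 53 measured genes besides Cd79a, of which 13 (24.5%) were at least 2-fold higher in rich arrays and none was 2-fold lower, beside 0.339% and 0.0175% of all genes. The mean of 52 of the 53 was higher in rich arrays, as was that of 10241 of all 17096 genes. The median difference of the 53 was 0.54. Without 24 rich arrays that stood above every poor array in Glycam1, a gene of lymph node venules described further on, 5 of the 53 were at least 2-fold higher. The median difference was then 0.30 for the receptor and co-receptor list, 0.23 for signalling, 0.30 for inhibitors, 0.29 for transcription factors and 0.24 for survival and homing. The gene whose mean was lower in rich arrays was Tnfsf13b, the survival cytokine BAFF, which is made largely by cells other than B cells and averaged 3.56 ± 0.17 in rich and 3.63 ± 0.16 in poor arrays. The name of the groups rests on Cd79a, which other B cell surface and signalling genes followed in their group means, while Pax5 and Ighm were dim in both. They did not follow it in every array. A ranking by Cd79b kept 18 of the 40 rich and 15 of the 40 poor arrays. Several genes of the lists were not analysed here because no probe set with a single gene symbol carried their name.

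Among genes of the receptor and its co-receptor, Ms4a1 and Cd79b stood apart. Ms4a1, which encodes the B cell surface protein CD20, was at 5.35, 7.07 and 9.40 (lowest, median and highest) in rich arrays and at 3.06, 4.41 and 6.36 in poor arrays. The mean difference was 2.71, a 6.55-fold ratio, and 30 of the 40 rich arrays lay above every poor array. Cd79b, the partner of Cd79a, was at 5.51, 7.01 and 9.70 in rich arrays and at 4.21, 5.03 and 6.69 in poor arrays. Its mean was higher by 1.97, with 27 rich arrays above every poor array. Both genes therefore overlapped between the groups while Cd79a, by construction, did not. Cr2, complement receptor 2 of the co-receptor, averaged 3.56 ± 0.68 in rich and 2.81 ± 0.24 in poor arrays. The tetraspanin Cd81, a co-receptor member that most cell types make, averaged 10.55 ± 0.15 in rich and 10.54 ± 0.15 in poor arrays. The probe set of Ighm, the heavy chain of IgM, averaged 2.79 ± 0.24 in rich and 2.68 ± 0.50 in poor arrays, and both means lay below the median of every array (3.17 to 3.40 over all probe sets). At such intensities a transcript cannot be told from background in these files, which hold no detection call.

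Genes that carry the signal inward were higher in rich arrays to differing degrees, with 3 of 13 past 2-fold and a median difference of 0.52. Bank1, a scaffold protein of B cell receptor signalling, was at 4.36, 5.59 and 8.45 in rich arrays and at 3.34, 4.09 and 5.30 in poor arrays. Its mean difference was 1.71. Prkcb, the protein kinase C that acts downstream of the receptor, was at 4.57, 5.76 and 8.18 in rich arrays, against 3.68, 4.53 and 5.22 in poor arrays (difference 1.41). Blnk, the adaptor that links the kinase Syk to its targets, was at 4.57, 5.62 and 7.94 in rich arrays, against 4.17, 4.70 and 5.63 in poor arrays (difference 1.13). In all 3 genes the lowest rich arrays lay inside the range of the poor arrays. The Src family kinase Blk differed by 0.97, the phospholipase Plcg2 by 0.93 and the kinase Btk by 0.73. Syk, which many cell types make, averaged 2.75 ± 0.19 in rich and 2.66 ± 0.17 in poor arrays.

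Inhibitors of the receptor moved with the activators, with 2 of 9 past 2-fold and a median difference of 0.54. Cd22, a sialic acid-binding inhibitory receptor of B cells, was at 4.64, 5.77 and 9.01 in rich arrays and at 4.06, 4.57 and 5.61 in poor arrays, a difference of 1.57. Ptpn6, the phosphatase SHP-1 that such receptors recruit, was at 3.09, 4.50 and 6.58 in rich arrays and at 2.84, 3.39 and 4.18 in poor arrays, a difference of 1.17. The related Siglecg differed by 0.88 and Cd72 by 0.86.

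The 250 bases before the RefSeq start of the 58 genes were searched on both strands for 2 short motifs of B cell factors, and are shown for 3 signalling genes that hold one. The octamer ATTTGCAT, which Pou2f1, Pou2f2 and their coactivator Pou2af1 use, was in 4 of the 44 promoters found for the 58 genes (9.09%) and in 218 of 13605 promoters found for all measured genes (1.6%). The motif of the early B cell factor Ebf1, taken as TCCC and GGGA with any 2 bases between them, was in 1 of the 44 (2.27%) and in 146 of the 13605 (1.07%). The octamer lay in Blnk, Prkcb, Ms4a4c and Sash3, and the Ebf1 motif in Cd22. In the 43 promoters found for the 54 genes of the B cell lists, the octamer was in 2 (4.65%) and the Ebf1 motif in 1 (2.33%). The window of Cd79a held neither, and no window was found for Cd79b and Ms4a1. The motifs do not overlap in these windows, and a match describes letters only. The windows come from RefSeq on GRCm38.p6 and run 5′ to 3′ on the strand of the gene, with the match in capitals (the octamer of Prkcb is on the opposite strand and reads ATGCAAAT).
Blnk (chr19:40994222-40994471, minus strand): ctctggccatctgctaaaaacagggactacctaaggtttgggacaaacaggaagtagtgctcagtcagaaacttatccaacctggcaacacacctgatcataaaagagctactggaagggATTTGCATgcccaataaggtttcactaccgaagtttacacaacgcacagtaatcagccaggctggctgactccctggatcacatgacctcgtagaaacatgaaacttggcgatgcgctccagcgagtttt
Prkcb (chr7:122288875-122289124, plus strand): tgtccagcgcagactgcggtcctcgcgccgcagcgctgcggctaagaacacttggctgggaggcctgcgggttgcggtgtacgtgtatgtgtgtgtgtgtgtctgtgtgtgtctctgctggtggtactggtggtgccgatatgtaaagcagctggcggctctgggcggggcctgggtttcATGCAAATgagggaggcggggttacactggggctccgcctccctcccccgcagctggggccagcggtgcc
Cd22 (chr7:30879029-30879278, minus strand): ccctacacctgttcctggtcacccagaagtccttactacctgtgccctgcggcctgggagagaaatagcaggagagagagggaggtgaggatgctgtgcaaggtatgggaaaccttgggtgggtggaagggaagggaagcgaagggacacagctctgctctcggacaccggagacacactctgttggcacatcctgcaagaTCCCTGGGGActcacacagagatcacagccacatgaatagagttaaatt

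Among 10 transcription factors of B cells, 2 were past 2-fold and the median difference was 0.55. Pou2af1, the coactivator just named, was at 3.27, 5.15 and 7.59 in rich arrays and at 2.68, 3.22 and 4.48 in poor arrays, a difference of 1.85, with 30 rich arrays above every poor array. Irf8, which B cells share with macrophages and dendritic cells, averaged 4.42 ± 0.95 in rich and 3.15 ± 0.28 in poor arrays. Spib, an ETS factor of B cells and plasmacytoid dendritic cells, averaged 4.21 ± 0.83 in rich and 3.21 ± 0.26 in poor arrays. Bach2 differed by 0.89 and Bcl11a by 0.78. The factors that define the lineage showed little. Pax5 averaged 2.65 ± 0.20 in rich and 2.54 ± 0.14 in poor arrays, both means below the array medians. Ebf1, which adipocytes also make, averaged 8.37 ± 0.31 in rich and 8.29 ± 0.38 in poor arrays, and Tcf3 differed by 0.31.

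Receptors for survival and homing followed, with 4 of 16 past 2-fold and a median difference of 0.47. Ly6d, a surface protein of B lineage cells and some epithelia, was at 4.03, 5.39 and 7.67 in rich arrays and at 2.94, 3.80 and 9.74 in poor arrays (difference 1.61). No rich array exceeded the highest poor array in this gene. H2-Ob, a chain of the class II modulator H2-O, was at 2.88, 4.0 and 8.15 in rich arrays and at 2.67, 2.95 and 3.59 in poor arrays (difference 1.45). The tetraspanin Cd37 differed by 1.31 and Tnfrsf13c, the receptor for BAFF, by 1.07. Cxcr5, the receptor of Cxcl13, averaged 3.93 ± 0.74 in rich and 3.08 ± 0.22 in poor arrays.

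**Figure D2:**
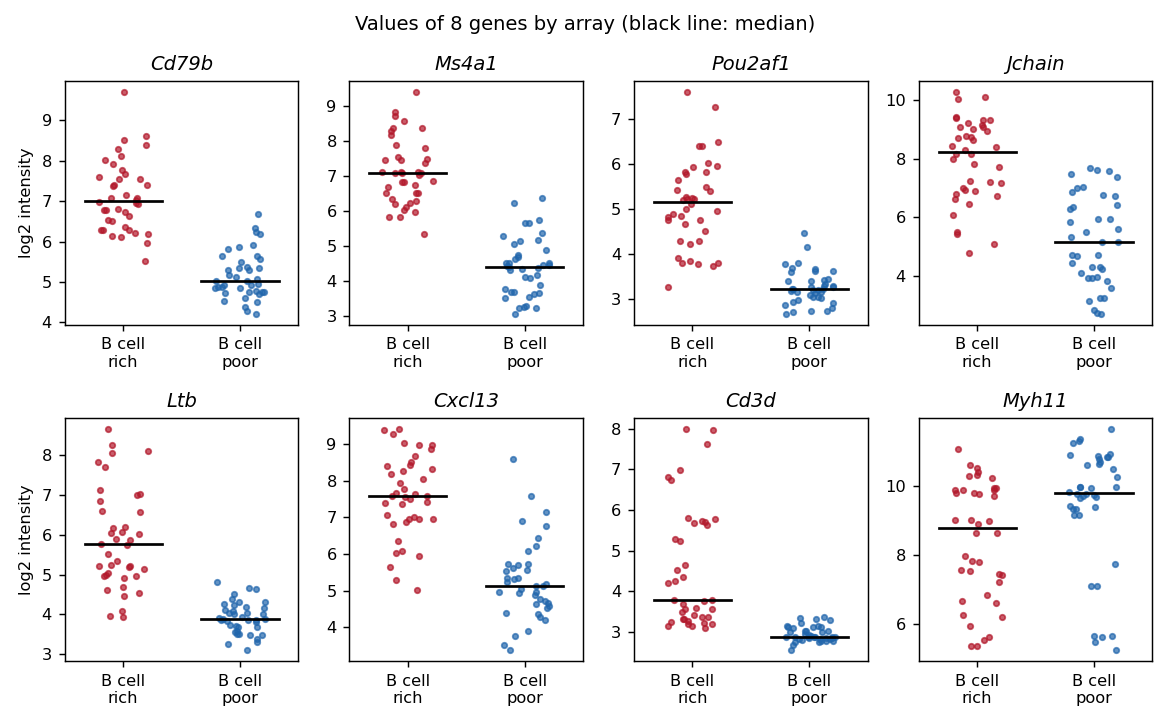
Log2 intensity (y axes, each with its own range) of 8 genes in the 40 B cell rich (red, left) and 40 B cell poor arrays (blue, right), 1 point per array, with the median as a black line. The median of Ms4a1 is 7.07 in rich and 4.41 in poor arrays, while Myh11 runs the other way with 8.77 in rich and 9.80 in poor arrays.

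Genes of plasma cells divided sharply. Jchain, the chain that joins IgM and IgA into polymers, was at 4.79, 8.24 and 10.29 in rich arrays and at 2.70, 5.15 and 7.68 in poor arrays. Its difference of 2.76, a 6.77-fold ratio, exceeded that of every other gene measured, and 25 rich arrays were above every poor array. The immunoglobulin light chain segment Iglv1 was at 3.45, 6.68 and 9.17 in rich arrays and at 3.03, 3.65 and 6.60 in poor arrays (difference 2.67). Igkj1 was at 8.54, 10.75 and 11.99 in rich arrays and at 5.13, 8.38 and 10.77 in poor arrays (difference 2.17). Immunoglobulin segments have near-identical copies, so neither value is certain to belong to the segment named. The other 7 measured plasma cell genes beside Jchain and Pou2af1 were not past 2-fold. Xbp1 averaged 9.54 ± 0.29 in rich and 9.46 ± 0.27 in poor arrays, Prdm1 3.24 ± 0.41 in rich and 3.07 ± 0.36 in poor arrays, and Irf4 4.98 ± 0.79 in rich and 4.80 ± 0.97 in poor arrays. All 3 are also made by cells other than plasma cells. Igha differed by -0.03, Tnfrsf17 by 0.12, Derl3 by 0.19 and Ccr10 by 0.09. Their means lay within or below the range of array medians (3.17 to 3.40), where a transcript cannot be told from background.

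Genes that mark germinal centres, where B cells mutate their receptors, and genes of immature lymphocytes showed no such difference. Most of them were dim in both groups. None of 8 germinal centre genes was past 2-fold, and their median difference was 0.04, close to the 0.02 of all genes. Bcl6, the factor that directs the germinal centre, averaged 8.24 ± 0.50 in rich and 8.18 ± 0.47 in poor arrays. Fas averaged 7.61 ± 0.27 in rich and 7.64 ± 0.28 in poor arrays. S1pr2 differed by 0.16 and Rgs13 by -0.13. The means of S1pr2, Rgs13, Mef2b, Gcsam, Mybl1 and Il21r lay within or below the range of array medians (3.17 to 3.40). For these genes the values cannot show whether germinal centre transcripts differed. None of 9 genes of immature lymphocytes and thymus was past 2-fold (median difference 0.06). The recombinase gene Rag1 averaged 2.66 ± 0.13 in rich and 2.69 ± 0.14 in poor arrays, and Dntt averaged 2.45 ± 0.14 in rich and 2.44 ± 0.09 in poor arrays, all 4 means below the array medians. Only Cd8b1 of this list, a chain of CD8 that mature T cells also carry, reached 0.56.

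T cell genes were higher in part of the rich arrays. Of 13, 3 were past 2-fold and the median difference was 0.36. Cd3d, a chain of the T cell receptor complex, was at 3.10, 3.78 and 8.00 in rich arrays and at 2.54, 2.88 and 3.36 in poor arrays. The difference was 1.61, and the rich arrays spread over nearly 5 log2 units while the poor arrays stayed within 1. Cd3g differed by 1.20 and Bcl11b by 1.00, just short of 2-fold. Cd2, an adhesion receptor of T cells and mouse B cells, was at 3.51, 4.86 and 7.61 in rich arrays and at 2.45, 3.22 and 4.04 in poor arrays. Ms4a4b, a relative of Ms4a1 known from T cells, was at 2.69, 5.26 and 9.80 in rich arrays and at 2.64, 3.31 and 5.38 in poor arrays (difference 2.16). None of 10 genes of NK and cytotoxic cells was past 2-fold, with a median of 0.10 and Klrd1 highest at 0.43.

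Several other genes among the 58 that belong to none of the B cell lists are known from leukocytes. The inhibitory receptor Btla, which B and T cells carry, was at 3.36, 4.91 and 8.49 in rich arrays and at 2.78, 3.39 and 4.38 in poor arrays (difference 1.80). The lymphocyte surface protein Cd52 was at 5.94, 7.70 and 10.22 in rich arrays and at 4.76, 6.18 and 7.30 in poor arrays (difference 1.73). Rac2, a GTPase of blood cells, and the actin regulator Coro1a both differed by 1.59, and the interferon-inducible Ifi209 by 1.66. Ptprc, which encodes the common leukocyte antigen CD45, averaged 8.31 ± 1.00 in rich and 6.88 ± 0.36 in poor arrays. Cyp1a1 (difference 1.16) and Xlr4b (difference 1.27), which are on none of the lists, were also among the 58.

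Of the genes of lymphoid stroma, follicular dendritic cells and high endothelium, 3 of 12 were past 2-fold, with a median of 0.11. Cxcl13 was at 5.01, 7.58 and 9.42 in rich arrays and at 3.38, 5.12 and 8.60 in poor arrays (difference 2.31). Only 8 rich arrays lay above every poor array. Ltb, the membrane lymphotoxin chain that lymphocytes use to maintain such stroma, was at 3.93, 5.76 and 8.67 in rich arrays and at 3.09, 3.88 and 4.80 in poor arrays (difference 1.98), with 33 rich arrays above every poor array. Glycam1, a mucin that the high endothelial venules of lymph nodes make, was at 2.28, 3.82 and 10.72 in rich arrays and at 2.22, 2.49 and 3.17 in poor arrays (difference 2.33). Its rich arrays thus ran from the level of the poor arrays to more than 7 log2 units above it. Ccl19 averaged 5.45 ± 0.93 in rich and 5.14 ± 0.89 in poor arrays. Chst4, a sulfotransferase of high endothelial venules, averaged 2.95 ± 0.35 in rich and 2.82 ± 0.27 in poor arrays. Madcam1 differed by -0.01. The follicular dendritic cell genes Coch, Mfge8, Clu and Fcamr had differences between -0.13 and 0.15.

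Glycam1 was above the highest poor array (3.17) in 24 of the 40 rich arrays and in 42 of the arrays between. In the same 24 rich arrays Cd3d was above its own highest poor value in 23, Ltb in 24 and Ms4a1 in 21. In the other 16 rich arrays Cd3d was above it in 5, Ltb in 9 and Ms4a1 in 9. Cxcl13 did not follow this division, with a median of 7.62 in the 24 and of 7.50 in the 16, against 5.12 in the poor arrays. Ccl19 had a median of 5.88 in the 24, 4.90 in the 16 and 4.96 in the poor arrays. No rich array was above its highest poor value (8.54). The 4 arrays highest in Cd79a were all among the 24, with Glycam1 between 7.92 and 10.72. The array ranked next below them in Cd79a, BXD40/TyJ replicate 2 at 5.25, was not, with Glycam1 at 2.54 and Cd3d at 3.48. The 24 were also higher in the ranking gene, as Cd79a averaged 5.13 in the 24 and 4.93 in the 16. Without the 24 arrays, its difference from the poor arrays was 0.91 in place of 1.03. In that comparison 14 genes (0.0819%) were at least 2-fold higher in the remaining rich arrays than in the poor arrays, in place of 58. They were Cxcl13 (2.30), Iglv1 (2.21), Ms4a1 (2.14), Jchain (1.96), Igkj1 (1.64), Cyp1a1 (1.63), Cd79b (1.40), Pou2af1 (1.30), Xlr4b (1.25), Cd5l (1.14), Bank1 (1.13), Saa3 (1.12), Ly6d (1.03) and Ltb (1.01). Cd3d then differed by 0.43 and Ms4a4b by 0.47. The median of the 13 T cell genes was 0.10 in place of 0.36, that of the smooth muscle genes -0.62 in place of -0.69 and that of the striated muscle genes -0.74 in place of -0.33. Lymph node RNA in the 24 arrays was not tested as a source of these values. This division was chosen after the values had been seen.

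**Figure D3:**
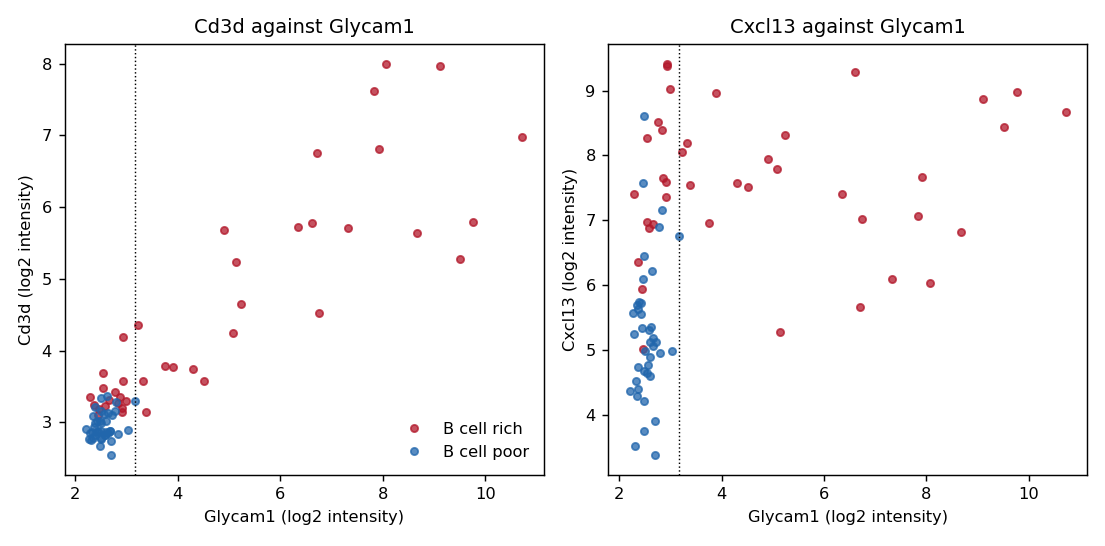
Cd3d (left panel, y axis) and Cxcl13 (right panel, y axis) against Glycam1 (x axes), as log2 intensities, in each of the 40 B cell rich (red) and 40 B cell poor arrays (blue). The dotted line is the highest Glycam1 value of a poor array (3.17), and of the 24 rich arrays to its right, 23 are above every poor array in Cd3d and 5 in Cxcl13.

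Antigen-presenting and macrophage genes were also higher in rich arrays, by less. Of all 17096 genes, 10241 had a higher mean in rich arrays. None of 9 genes of MHC class II presentation was past 2-fold, but 8 of the 9 had a higher mean in rich arrays and their median difference was 0.76, or 0.43 without the 24 arrays. The other gene, H2-Ea, averaged 5.34 ± 2.62 in rich and 5.50 ± 2.47 in poor arrays. Cd74, the invariant chain, was at 7.34, 8.41 and 10.21 in rich arrays and at 6.84, 7.63 and 8.31 in poor arrays (difference 0.82). H2-Eb1 was at 7.86, 8.80 and 9.97 in rich arrays and at 7.06, 8.21 and 8.61 in poor arrays, with 31 rich arrays above every poor array. B cells, macrophages and dendritic cells all make these genes. All 16 macrophage genes had a higher mean in rich arrays (median difference 0.37), led by Mpeg1 with 7.46 ± 0.63 in rich and 6.75 ± 0.48 in poor arrays, and Cd68 averaged 5.28 ± 0.57 in rich and 4.84 ± 0.50 in poor arrays. Of 11 foam cell genes only Cd5l was past 2-fold. This protein is secreted by tissue macrophages and was at 3.37, 5.37 and 7.73 in rich arrays and at 2.78, 4.22 and 6.87 in poor arrays (difference 1.24). The 11 interferon response genes all had a higher mean in rich arrays (median difference 0.41), none of them past 2-fold, and without the 24 arrays above the poor arrays in Glycam1 this median was 0.10. The macrophage median was then 0.32. Of the 7 dendritic cell genes, 1 was past 2-fold, namely Irf8 again. None of the neutrophil, mast cell and erythroid genes was past 2-fold.

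All 15 contractile genes of smooth muscle had a lower mean in rich arrays (median difference -0.69), and 2 were past 2-fold. Of all 17096 genes, 6843 had a lower mean in rich arrays. Myh11, the smooth muscle myosin heavy chain, was at 5.36, 8.77 and 11.08 in rich arrays and at 5.24, 9.80 and 11.66 in poor arrays (difference -1.01). The integrin chain Itga8 was at 5.63, 9.10 and 11.36 in rich arrays and at 6.24, 10.25 and 11.96 in poor arrays (difference -1.01). Sost, the Wnt inhibitor sclerostin, which aortic smooth muscle also makes, was the third of the 3 lower genes, at 3.13, 5.76 and 9.73 in rich arrays and at 3.06, 7.66 and 9.78 in poor arrays (difference -1.29). In each of these 3 genes the ranges of the groups overlapped almost entirely. The mean level of the 15 genes was 7.76 ± 0.98 in rich and 8.45 ± 1.04 in poor arrays, and 16 rich and 7 poor arrays lay below the 25th percentile of all arrays. Without those 23 arrays, the counts were 74 genes 2-fold higher and 1 lower. Whether the amount of muscle in a sample has a part in the other differences was not tested.

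Most of the remaining cell types differed less. The 12 endothelial genes had a median difference of 0.05, the 6 lymphatic endothelial genes 0.07 and the 12 fibroblast and matrix genes -0.10 (Eln lowest at -0.50). All 12 striated muscle genes had a lower mean in rich arrays, with a median difference of -0.33. Adipocyte genes were bright in both groups although the aortas had been cleaned of fat. The mean of the 6 general adipocyte genes was 11.70 ± 0.10 in rich and 11.67 ± 0.12 in poor arrays, and Ucp1, the uncoupling protein of brown fat, averaged 12.89 ± 0.15 in rich and 12.88 ± 0.19 in poor arrays. These adipocyte levels differed between the groups by less than their SD within a group. The difference between 3′ and 5′ probe sets of actin, a measure of RNA integrity, was 1.20 ± 0.24 in rich and 1.25 ± 0.23 in poor arrays. Of 12 arrays more than 2 SD above the mean of all arrays in hepatocyte or striated muscle genes, none was rich and 1 was poor. This cut did not mark every array with much striated muscle RNA. The mean level of the 12 striated muscle genes reached 12.28 in a rich array, against 11.41 in the highest poor array. That rich array stayed in when the marked arrays were left out.

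**Figure D4:**
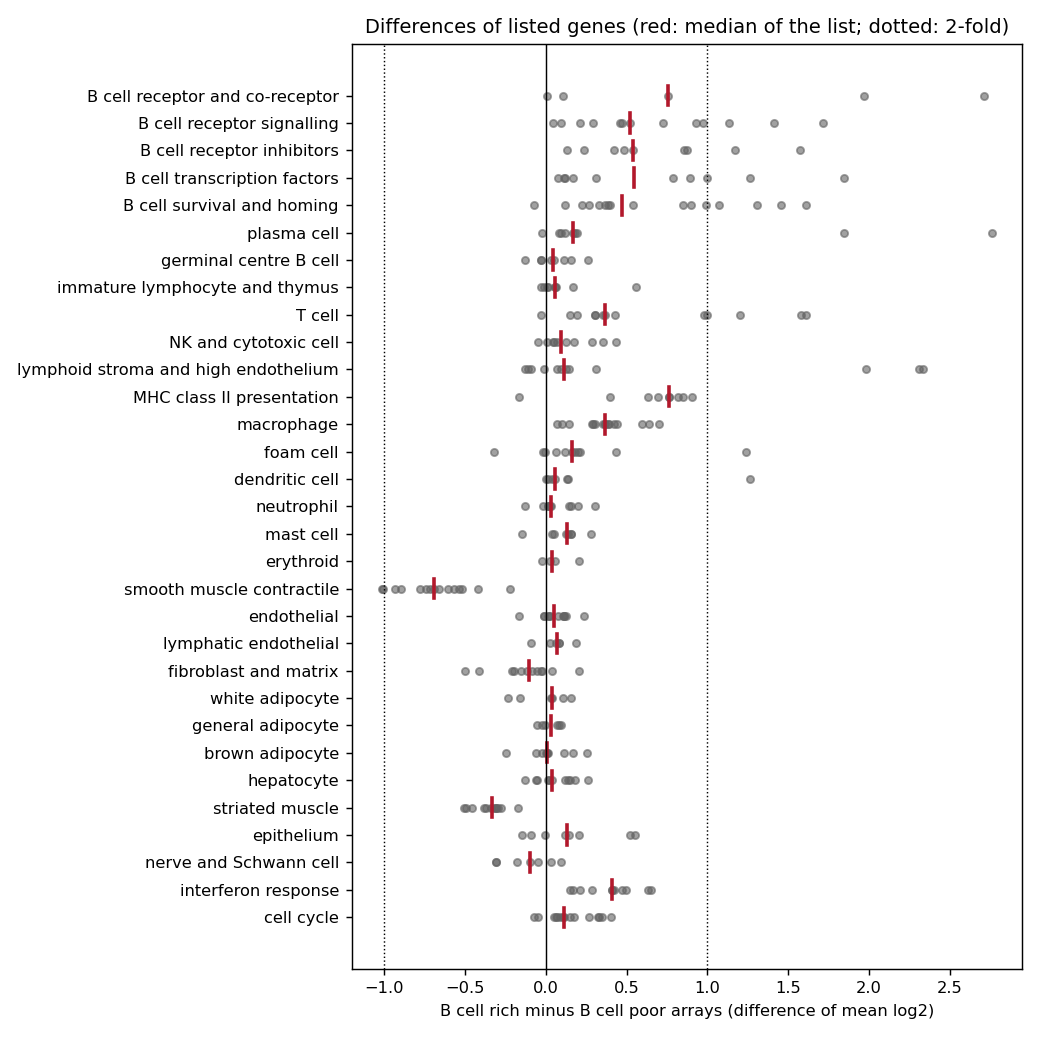
Difference of mean log2 intensity, B cell rich minus B cell poor arrays (x axis), for each measured gene (grey point) of the 31 lists (y axis), with the median of each list as a red bar and dotted lines at 2-fold. Points past the right dotted line lie in B cell, plasma cell, T cell, lymphoid stroma, foam cell and dendritic cell lists. The smooth muscle and striated muscle lists lie wholly to the left of 0.

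The rich arrays came from 34 strains and the poor arrays from 31, with 7 strains in both. No strain gave more than 2 rich or 3 poor arrays, and no strain with 2 or more arrays had all of them in the rich group. The CXB set gave 7 rich and 4 poor arrays, which are 17.5% of the rich and 10% of the poor arrays, and it made up 8.74% of all arrays. The BXD set gave 12 rich and 11 poor (33.9% of all arrays), the AXB/BXA set 7 rich and 9 poor (19.95% of all), the BXH set 1 rich and 0 poor (4.1% of all), and the classical inbred strains 13 rich and 16 poor (33.3% of all). AKR/J held the highest mean of Cd79a among strains with 2 or more arrays, yet its 4 mice ran from 4.15 to 6.98. LG/J held the lowest mean (4.03 ± 0.07, SD, n = 4), and 3 of its 4 arrays were poor. LG/J nevertheless had the highest Ccl19 (8.54) and Cxcl13 (8.60) of any poor array.

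In each of the 7 strains with both kinds of array, 1 rich array could be set beside 1 poor array of the same cross. Ms4a1 was higher in the rich array in all 7, by 0.16 to 4.44 (median 2.50), and Jchain by 0.56 to 5.98 (median 1.90). The smallest difference in Ms4a1 was that of BXD31/TyJ, with 6.51 in its rich and 6.36 in its poor array, and the largest that of BXA24/PgnJ, with 7.50 in its rich and 3.06 in its poor array. Cxcl13 was higher in 6 of the 7 and Glycam1 in 5. For C57BL/6J (rich 2.91, poor 2.50) and CBA/J (rich 2.99, poor 2.49), however, both Glycam1 values lay below the array medians (3.17 to 3.40). There a transcript cannot be told from background. Myh11 was lower in 6 of the 7, the exception being CBA/J with 7.83 in its rich and 5.24 in its poor array.

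With each array expressed as its deviation from the mean of its strain, 38 rich and 40 poor arrays remained and 16 genes (0.0936%) were at least 2-fold higher in rich arrays, all of them among the 58. None was 2-fold lower. Cd79a itself differed by 0.67 in place of 1.03, and among the 61 genes past 2-fold the deviation was 0.60 of the full difference at the median. Subtracting a strain mean that includes the array itself shrinks every deviation, so this share is not a measure of inheritance. The 16 genes were Ms4a1 (1.87), Jchain (1.82), Iglv1 (1.77), Cxcl13 (1.61), Igkj1 (1.44), Cd79b (1.38), Glycam1 (1.28), Pou2af1 (1.26), Ltb (1.25), Ms4a4b (1.21), Bank1 (1.18), Ly6d (1.12), Cd52 (1.08), Ifi209 (1.05), Btla (1.04) and Cd5l (1.01). Of the 53 B cell genes 5 were past 2-fold, and their median was 0.33 beside 0.01 for all genes. Without the 24 rich arrays above the poor arrays in Glycam1, 5 genes were past 2-fold and 1 of them was a B cell gene.

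**Figure D5:**
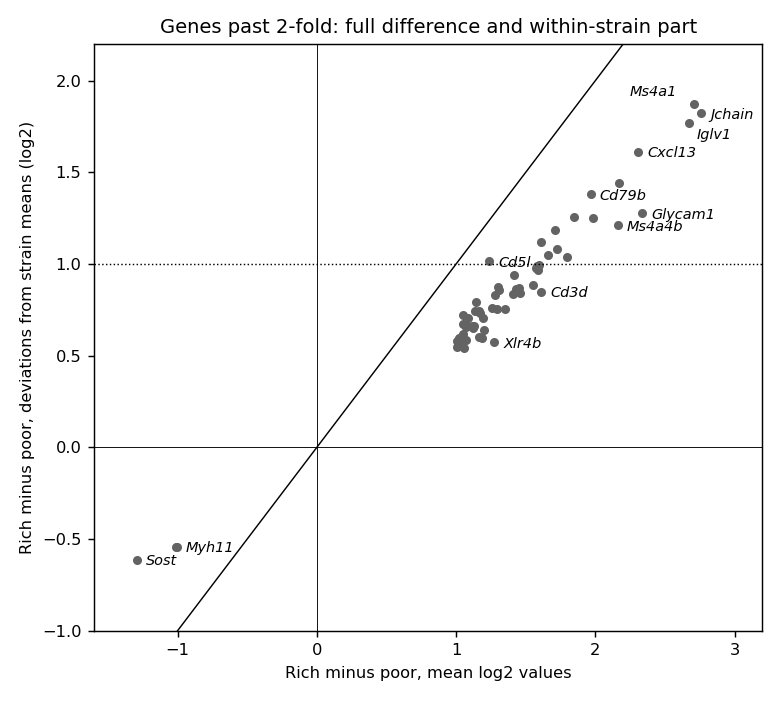
Rich minus poor difference on mean log2 values (x axis) and on deviations from strain means (y axis) for the 61 genes past 2-fold, 1 point per gene, with the diagonal as a solid line and 2-fold in deviations as a dotted line. Every point lies between the diagonal and 0, and 16 genes lie above the dotted line, with Ms4a1 (1.87) and Jchain (1.82) highest.

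Strain is a labelled group, and the differences among strains were tested without use of the ranking, with the F test of limma (360 arrays, all strains with at least 2, which were 95). Of all 17097 genes, 13776 (80.6%) passed at an adjusted p under 0.05, and strain accounted for 20.8% of the variance at the median. Of the 53 B cell genes, 38 (71.7%) passed, with 11.8% of the variance at the median. That share is below that of all genes. Without the mice numbered 1 in their strain (257 arrays of 87 strains left), 24 of the 53 passed, beside 12561 of all 17097 genes. Cd79a passed (adjusted p = 0.038 by limma), with 8.53% of its variance among strains, as did Cd79b (adjusted p = 0.0121, 10.8%) and Pou2af1 (adjusted p = 0.0488, 7.81%). Ms4a1 had 16.0% of its variance among strains (limma adjusted p = 0.000542), and Jchain had 28.4% (limma adjusted p = 8.09e-09). Cxcl13 had 27.2% and Glycam1 12.3%. Contractile genes of smooth muscle stood higher, with a median of 43.7% over 15 genes. Most of the variance of Cd79a, Cd79b, Ms4a1 and Pou2af1 thus lay within strains, as did that of the median gene. With 1 array per mouse, differences between mice of a strain cannot be told apart from those between samples or arrays.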

How the data were processed

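Total RNA of each aorta was hybridized to an Affymetrix array, named HT_MG-430A in the labels and HT-MG_430 PM in the study's methods. Per the submitters' processing notes the authors used GCOS and RMA, whose versions are not given in the sources used here, and deposited log2 intensities of 45141 probe sets on 366 arrays from 101 strains. RMA background correction compresses differences at low intensity. Labels name no batch, date or culture, and 1 array stands for 1 mouse. All columns were mapped by label.

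Each gene is represented by its brightest probe set on average, among 28898 with 1 symbol in the platform annotation, which gave 17097 genes. The intensities ranged from 1.63 to 13.7, and the number of arrays limits the precision. Means, SD, ranges and deviations from strain means (95 strains, 360 arrays) were computed with pandas 2.3.3. Strains were tested with limma 3.58.1 (lmFit, eBayes, F test, Benjamini-Hochberg over 45141 probe sets, threshold 0.05), which was tested on simulated data. Intraclass correlations gave the percent of variance that lies among strains. Promoters came from RefSeq on GRCm38.p6.

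The ranking, the 31 lists (308 of 359 genes measured, Oas1g being read for Oas1a) and the tests were chosen with earlier results of these data known. Genes to be named were selected as Cd79a, all members of 6 lists and the 4 largest differences of each other list. To these came the 20 highest and 15 lowest differences of levels and the 10 highest and 5 lowest of deviations. Not every gene so selected is given in the text. Tnfsf13b, Plcg2, Btk, Syk, Cxcr5, Ptprc, Ucp1, Cyp1a1, Xlr4b, Saa3, H2-Ea, Ms4a4c and Sash3 were added after their values were seen. Alternatives tried were 20 or 60 arrays per group, ranking by Cd79b or by deviation, medians, brighter genes, 1 array per strain, renormalization, a 1.5-fold threshold, the most variable probe set, other strain sets and tests, and leaving out replicates or arrays.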

Additional observations from a re-analysis of the deposited data

Results flagged for a closer look

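Cd79a was checked for single arrays far from the others of their strain in 75 strains with 4 to 10 arrays, and 4 strains had one (5.33%). Chance alone marks about 1 in 20 such groups, and this number is close to that. In AXB19a/PgnJ, replicate 1 was at 4.1554 while the other 3 mice lay between 4.6538 and 4.7049. In BXD32/TyJ, replicate 1 was at 4.0279, a B cell poor array, while the others lay between 4.6317 and 4.7466. In BXA11/PgnJ, replicate 1 was at 4.2025 and the others lay between 4.439 and 4.4773. In C3H/HeJ, replicate 2 was at 5.0043, a B cell rich array, and the other 7 lay between 4.4163 and 4.5902.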

How the results depend on the processing

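The count of genes at least 2-fold higher in B cell rich arrays (58) was 116 with 20 arrays per group, 32 with 60, 101 when ranked by Cd79b (18 of the 40 rich and 15 of the 40 poor arrays shared), 176 at 1.5-fold, and 14 without the rich arrays high in Glycam1. It lay between 40 and 74 under the other 8 alternatives. The count lower (3) was 10 with 20 arrays, 0 with 60, 12 by Cd79b, 21 by medians, 1 with 1 array per strain and group, 87 after quantile normalization, 71 at 1.5-fold, 5 without arrays high in hepatocyte or striated muscle genes, 6 without the 4 arrays highest in Cd79a and 1 without arrays low in smooth muscle genes. The B cell genes past 2-fold (13) were 25 with 20 arrays, 21 by Cd79b, 25 at 1.5-fold, 5 without the arrays high in Glycam1 and 20 without arrays low in smooth muscle genes. In deviations, genes higher (16) were 28 when ranked by the deviation of Cd79a, 35 with 20 arrays, 5 without the arrays high in Glycam1 and 9 without the 4 highest arrays. Genes lower in deviations (0) were 21 when ranked by deviation, and B cell genes (5) were 9, 11 with 20 arrays and 1 without the arrays high in Glycam1. Glycam1 in deviations was then -0.16, which follows from the removal of the arrays high in it. Otherwise the cause was not tested.

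Leaving out each replicate number in turn gave 12019 to 13732 genes that differed among strains (13776 in full), and 24 to 39 of the 53 B cell genes (38 in full). The lowest, 24, was without replicate 1. Without replicate 2, which leaves the same number of arrays (257), it was 31. No paired analysis was possible because replicate numbers only name mice of a strain, and the differences within the 7 strains that held both kinds of array are a description with no test. A planned ranking by a further gene was not run. Probe sets below an intensity near 3 have no detection call, so dim genes cannot be told from background. The alternatives without the arrays high in Glycam1, the 4 highest or those low in smooth muscle genes were chosen after seeing the data.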
